A study of Mus musculus with 15 samples.

Results

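The liver X receptor and cholesterol efflux genes described here are 10 named genes, the receptor gene Nr1h3 and 9 genes whose transcription the receptor is known to promote. They were Abca1, Abcg1, Apoe, Apoc1, Mylip, Srebf1, Scd1, Scd2 and Lpcat3. Their probes were found through the RefSeq accessions that the scanner files give, and all 10 were among the 20145 genes named on the array and among the 13391 genes tested. The study measured RNA of sorted mouse liver macrophages on 15 one-colour Agilent arrays, 5 in each of 3 groups. WT_SD (below, wildtype) is the CD11c-negative fraction from healthy livers of wildtype mice on a standard diet, and the sources used here do not state the age of those mice. MC4R_WD CD11c-negative and MC4R_WD CD11c-positive (below, NASH CD11c-negative and NASH CD11c-positive) are the fractions without and with CD11c, the integrin alpha X chain, from livers with nonalcoholic steatohepatitis. Those livers came from male MC4R-KO mice, which lack the melanocortin 4 receptor and were fed a Western diet for 20 weeks from the age of 8 weeks. All 3 groups were gated on high F4/80, an antigen of macrophages. Genotype and diet differ together between wildtype and NASH, and no CD11c-positive fraction of wildtype livers was analysed here. Each sample is a pool of macrophages of 7 to 9 mice. Nothing in the labels says whether the 5 arrays of a group came from separate pools, so every p-value below reflects only how far these samples scatter, which may be a technical matter.

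Liver X receptors are nuclear receptors that bind DNA as heterodimers with retinoid X receptors and are switched on by oxysterols and by desmosterol, so they report the sterol load of a cell. In macrophages their targets move cholesterol out of the cell onto apolipoproteins, lower the uptake of lipoproteins, and raise the synthesis and desaturation of fatty acids and the remodelling of phospholipids. A liver macrophage takes up lipoproteins, dying hepatocytes and lipid droplets, and these genes are among those known to answer that load.

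The receptor dimer binds a direct repeat of a short unit with a spacer, and the promoters of the members were searched for it on both strands. The pattern was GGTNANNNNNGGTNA, which is GGTNA, 5 unspecified bases and GGTNA again. It is a relaxed form of the direct repeat with 4 spacing bases. The last of the 5 unspecified bases therefore belongs to the second unit and not to the spacer. RefSeq promoter windows (250 bases before to 50 bases after a start, build GRCm38.p6) were available for 6 of the 10 members, with 11 windows in all, for Nr1h3, Abca1, Apoe, Mylip, Srebf1 and Lpcat3. The pattern was found in 2 of these 11 windows, while 236 of all 32851 promoter windows (0.72%) held it. The members were chosen as the receptor gene and its known targets, and some windows of Nr1h3 and of Apoe overlap each other. These shares are therefore no test of enrichment. The windows with a match are shown because they belong to the cholesterol exporter gene Abca1 and to Srebf1, both described below, with the matched bases in capitals. The Abca1 window lies at chr4:53159846-53160145 on the minus strand, and the Srebf1 window at chr11:60210422-60210721, also on the minus strand.
Abca1: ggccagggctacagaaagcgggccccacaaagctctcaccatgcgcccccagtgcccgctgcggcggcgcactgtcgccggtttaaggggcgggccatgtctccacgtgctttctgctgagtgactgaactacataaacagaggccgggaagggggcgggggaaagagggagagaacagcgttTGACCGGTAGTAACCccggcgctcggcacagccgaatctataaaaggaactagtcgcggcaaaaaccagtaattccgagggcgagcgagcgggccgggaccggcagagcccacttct
Srebf1: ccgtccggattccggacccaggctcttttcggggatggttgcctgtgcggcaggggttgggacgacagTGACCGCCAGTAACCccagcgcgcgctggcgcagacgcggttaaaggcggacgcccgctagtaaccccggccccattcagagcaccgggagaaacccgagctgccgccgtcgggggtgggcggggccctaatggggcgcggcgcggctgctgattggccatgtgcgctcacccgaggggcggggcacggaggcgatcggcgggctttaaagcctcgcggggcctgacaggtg
Both matches lie on the strand opposite to the gene, 67 to 53 bases before the start of Abca1 and 182 to 168 bases before this start of Srebf1. Read in the direction of the pattern, with the GGTNA parts in capitals, they differ only within the bases between these parts.
Abca1 element: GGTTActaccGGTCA
Srebf1 element: GGTTActggcGGTCA
The Abca1 window also holds the E-box CACGTG, 147 to 142 bases before the start, which 7.15% of all windows hold. Srebf1 has 3 annotated starts, and the window with the match belongs to the one farthest downstream. The array does not tell these starts apart, and a match describes letters and shows no binding.

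As a check on the sort, Itgax, which encodes CD11c, had mean log2 levels of 4.21 in wildtype, 5.93 in NASH CD11c-negative and 7.29 in NASH CD11c-positive cells. Adgre1, which encodes F4/80, read 7.34, 7.74 and 7.31 in the same order, and all 6 measured genes of 7 on a macrophage list were well above background in every group. Mc4r was well above background on 0 of 15 arrays, so its probe checks nothing about the genotype. The 75th percentile of an array's signal ran from 358.6 to 562.4 units, 45.8% to 58% of its spots were well above background, and no spot was saturated. Cell type markers also moved between the groups. The summed linear level of 8 Kupffer cell genes, relative to each array's 75th percentile, was 2490 to 2740 in wildtype, 1540 to 1690 in NASH CD11c-negative and 1180 to 1300 in NASH CD11c-positive arrays. Over 6 genes of lipid-associated macrophages the sum was 119 to 126, 829 to 875 and 1010 to 1040, and over 10 neutrophil genes it was 415 to 436, 1580 to 1730 and 647 to 681. In the same order of groups, 7 measured genes of 8 of conventional dendritic cells summed to 35.6 to 38.2, 20.7 to 22.9 and 46 to 49.6, and 5 of 6 monocyte genes to 101 to 110, 296 to 333 and 220 to 235. A sum weighs the brightest genes most, and single dendritic cell genes moved farther. Their median log2 difference was -1.5 between wildtype and NASH CD11c-negative cells (6 of 7 lower, 0 higher). Between the NASH fractions it was 2.95, with 6 of 7 higher in NASH CD11c-positive cells and 0 lower. Of all genes tested 48.3% were higher and 28.5% lower in the former comparison, and 29.9% and 23.2% in the latter. The sum over 8 sinusoidal endothelial genes was 355 to 389, 217 to 230 and 140 to 145, and over 5 B and plasma cell genes 59.1 to 67, 37.9 to 45.2 and 22.2 to 25. The sums overlapped for the 8 T and natural killer cell genes (25.3 to 28.5, 26 to 32.2 and 27.1 to 30.2), although single genes moved. Of these 8 genes 5 passed as lower and 1 as higher in NASH CD11c-negative against wildtype cells. Between the NASH fractions 6 passed as higher and 0 as lower. The shares of all genes given with the dendritic cell genes hold for these counts too. For stellate cells 7 of 8 genes summed to 6.52 to 7.18, 9.03 to 9.74 and 6.56 to 7.02. The part of these shifts in the results below was not tested, and in pooled sorted cells more cells of a type cannot be told apart from more RNA of a gene per cell.

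All levels below are log2 signals relative to the 75th percentile of the array, from 1 probe per gene, and each difference is a difference of group means ± the limma standard error with 5 arrays per group. All 10 members were well above background on all 15 arrays. Their standard deviations within a group ran from 0.0235 to 0.113. In NASH CD11c-negative against wildtype cells 8 members were higher, a single member was lower and 1 did not pass by limma (Benjamini-Hochberg adjusted p under 0.05 over all genes). Of all 13391 genes, 48.3% were higher and 28.5% lower in that comparison. For 9 members the arrays of these groups did not overlap, as was so for 64.1% of all genes. The median difference of the members was 0.68, where that of all genes was 0.13, and 2 of 10 differed at least 2-fold, against 11.5% of all genes. In NASH CD11c-positive against NASH CD11c-negative cells 7 members were higher and 3 lower, where 29.9% of all genes were higher and 23.2% lower. The arrays did not overlap for 8 members and for 39.5% of all genes, the members' median was 0.18 against 0.01 for all genes, and no member reached 2-fold, as 2.93% of all genes did. In NASH CD11c-positive against wildtype cells 7 members were higher and 3 lower, where 51.3% of all genes were higher and 26.3% lower. Here the arrays did not overlap for any of the 10 members (69.3% of all genes), the members' median was 0.96 against 0.16, and 4 of 10 differed at least 2-fold, against 13.8% of all genes. These 3 comparisons share groups, so they are not independent of each other. The direction of small differences depends on how arrays are scaled. Of the genes that passed in NASH CD11c-negative against wildtype cells, 62.9% were higher with the 75th percentile of all probes, 49% with quantile normalization and 38.9% with the 75th percentile of probes above background.

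**Figure D1:**
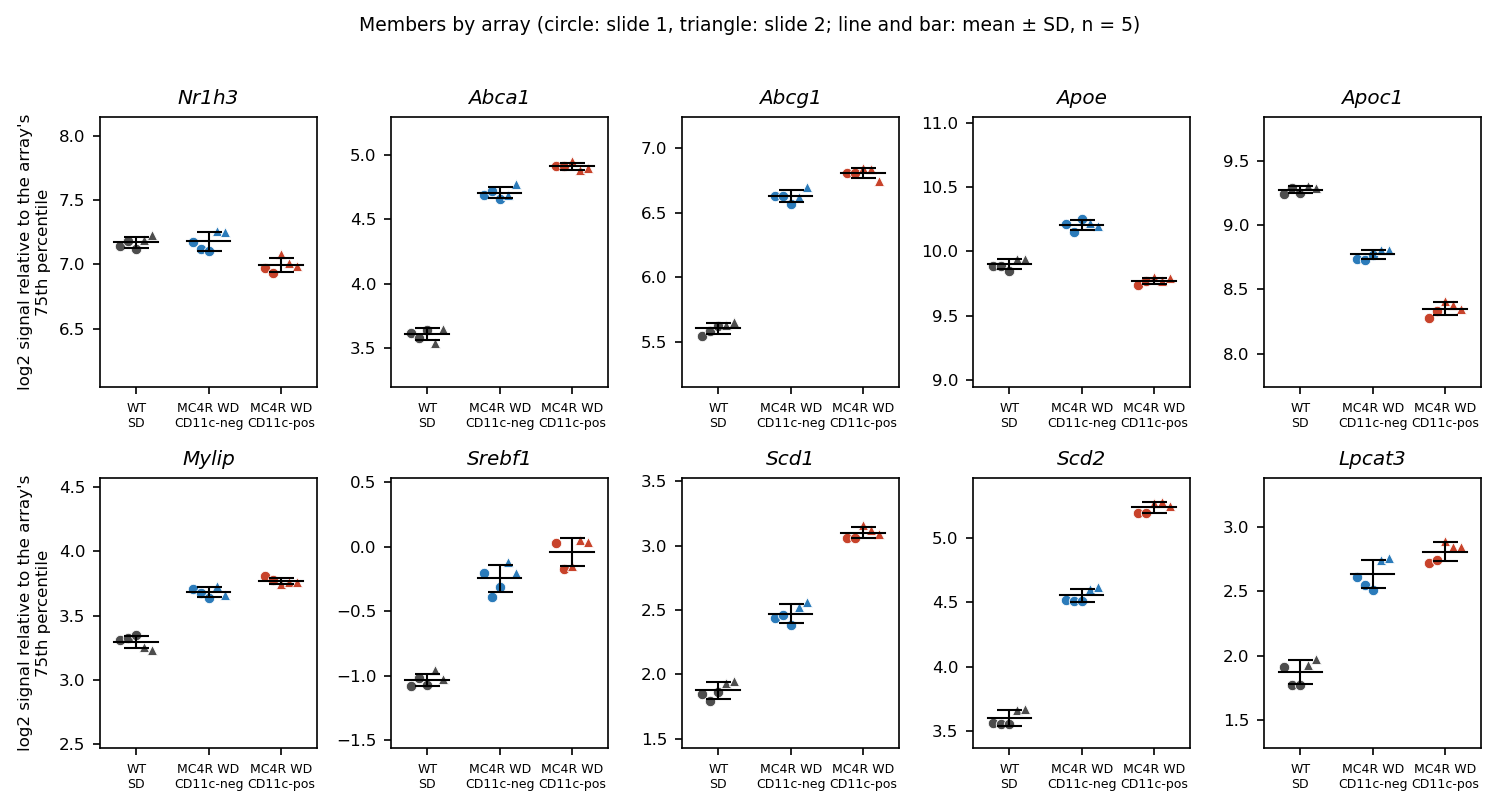
Log2 signal relative to the array's 75th percentile (vertical axis, same span in each panel) of the 10 members on the 15 arrays, in 3 groups of 5; circles are arrays of slide 1 and triangles of slide 2, and the line and bar give the mean ± SD. Abca1 and Abcg1 take their larger step between wildtype and NASH CD11c-negative arrays, Scd1 and Scd2 step up in both comparisons, Apoc1 steps down in both, and Apoe is highest in the NASH CD11c-negative arrays at this scaling (the same in all groups with quantile normalization).

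Nr1h3 encodes liver X receptor alpha, the form of the receptor abundant in liver and macrophages. It read 7.14, 7.18, 7.12, 7.19 and 7.23 on the wildtype arrays, 7.17, 7.12, 7.10, 7.26 and 7.25 on the NASH CD11c-negative arrays, and 6.97, 6.93, 7.08, 7.01 and 6.99 on the NASH CD11c-positive arrays. The first 2 groups overlapped along their whole range, and every NASH CD11c-positive array lay below every array of the other groups. The difference between NASH CD11c-negative and wildtype cells was 0.01 ± 0.039 (limma adjusted p = 0.849). NASH CD11c-positive cells were lower than NASH CD11c-negative cells by a small amount (-0.19 ± 0.039, adjusted p = 0.00103 by limma) and lower than wildtype cells (-0.18 ± 0.039, adjusted p = 0.000751). A second Nr1h3 probe gave 0.01, -0.23 and -0.23 in the same 3 comparisons. These values depend on the scaling: NASH CD11c-negative against wildtype cells stood at -0.46 with quantile normalization and -0.23 with the 75th percentile of probes above background, each passing as lower, and both differences of NASH CD11c-positive cells missed the threshold with the array median (-0.08 and -0.02). No scaling tried made Nr1h3 pass as higher in either NASH fraction.

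The cholesterol exporters had the largest rises among the members between wildtype and NASH CD11c-negative cells at this scaling. With quantile normalization Srebf1 was first (0.818), followed by Abca1 (0.805), and Abcg1 (0.577) came behind Scd2 and Lpcat3 as well. Abca1, the transporter that loads cholesterol and phospholipid onto lipid-poor apolipoprotein A-I, read 3.62, 3.58, 3.64, 3.54 and 3.65 on wildtype arrays. On NASH CD11c-negative arrays it read 4.69, 4.72, 4.66, 4.69 and 4.77, and on NASH CD11c-positive arrays 4.91, 4.91, 4.95, 4.88 and 4.90. The 3 groups lay in 3 separate ranges, with NASH CD11c-positive cells highest. Abca1 was 2.14-fold higher in NASH CD11c-negative than in wildtype cells (1.10 ± 0.028 log2, limma adjusted p = 8.02e-14), and a further 1.15-fold higher in NASH CD11c-positive cells (0.20 ± 0.028, adjusted p = 2.65e-05). Abcg1, which moves cholesterol onto mature high-density lipoprotein, read 5.54, 5.58, 5.62, 5.63 and 5.65 in wildtype cells, 6.63, 6.63, 6.57, 6.62 and 6.70 in NASH CD11c-negative cells, and 6.81, 6.81, 6.85, 6.84 and 6.75 in NASH CD11c-positive cells. Its groups were ordered as for Abca1 and did not overlap. Abcg1 was 2.04-fold higher in NASH CD11c-negative than in wildtype cells (1.03 ± 0.030, adjusted p = 3.4e-13 by limma) and 1.13-fold higher again in NASH CD11c-positive cells (0.18 ± 0.030, adjusted p = 0.000143). With quantile normalization the former difference still passed.

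A ratio of 2 genes within an array does not depend on how arrays are scaled by a constant. The log2 ratio of Abca1 over Nr1h3 lay 1.09 above its wildtype mean in NASH CD11c-negative cells (1 to 1.16, SD 0.0635) and 1.48 above it in NASH CD11c-positive cells (1.44 to 1.54, SD 0.0457). Wildtype arrays spanned -0.09 to 0.09 on this measure, so both shifts were far larger than the spread. The ratio of Abca1 over Abcg1 shifted by 0.07 and 0.10 only, and its ranges in NASH (0.06 to 0.09 and 0.04 to 0.15) overlapped the wildtype range of -0.10 to 0.07. At this scaling the 2 exporters changed by nearly the same amount, and Abca1 changed unequally with Nr1h3. Quantile normalization does not scale by a constant, and with it the exporters changed by 0.805 and 0.577 between wildtype and NASH CD11c-negative cells.

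The apolipoprotein genes Apoe and Apoc1, neighbours in a gene cluster, differed from each other. Apoe, whose product accepts exported cholesterol and carries remnant particles to lipoprotein receptors, read 9.89, 9.89, 9.85, 9.94 and 9.94 in wildtype, 10.21, 10.15, 10.25, 10.22 and 10.20 in NASH CD11c-negative and 9.74, 9.77, 9.80, 9.77 and 9.79 in NASH CD11c-positive cells. NASH CD11c-negative arrays were highest, NASH CD11c-positive arrays lowest, and no groups overlapped. Apoe was 1.23-fold higher in NASH CD11c-negative than in wildtype cells (0.30 ± 0.026, limma adjusted p = 6.31e-08) and 1.35-fold lower in NASH CD11c-positive than in NASH CD11c-negative cells (-0.43 ± 0.026, adjusted p = 5.38e-09). Against wildtype, NASH CD11c-positive cells were 1.09-fold lower (-0.13 ± 0.026, adjusted p = 0.000416), a sign that turned with the array median (0.027, not passed). The size of the Apoe rise in NASH CD11c-negative cells also depended on the scaling. The 75th percentile of probes above background lowered all differences in that comparison by the same amount, taking Nr1h3 from 0.008 to -0.227. The same shift took away most of the rise of Apoe, although what was left still passed. In NASH CD11c-positive against wildtype cells Apoe stood at -0.376 with that scaling. The Apoe probe was the brightest on all 15 arrays, so quantile normalization sets it to a single value and each difference to 0.

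Apoc1, which encodes a small apolipoprotein that slows the uptake of remnant particles, read 9.24, 9.29, 9.25, 9.30 and 9.29 in wildtype, 8.74, 8.73, 8.77, 8.81 and 8.81 in NASH CD11c-negative and 8.28, 8.33, 8.41, 8.38 and 8.35 in NASH CD11c-positive cells. It stepped down from group to group with no overlap. Apoc1 was 1.41-fold lower in NASH CD11c-negative than in wildtype cells (-0.50 ± 0.028, limma adjusted p = 5.41e-10) and 1.34-fold lower again in NASH CD11c-positive cells (-0.42 ± 0.028, adjusted p = 1.51e-08). With quantile normalization these differences were -0.79 and -0.23, and both passed. The ratio of Apoe over Apoc1 was 0.80 above its wildtype mean in both NASH fractions (0.76 to 0.85 and 0.76 to 0.83, with wildtype from -0.03 to 0.02). The fall from the NASH CD11c-negative to the NASH CD11c-positive fraction was of nearly the same size for both genes, and the separation of Apoe from Apoc1 lay between wildtype and NASH. Hepatocytes also make both apolipoproteins. The summed level of 12 measured hepatocyte genes of 14 was 75 to 80.7 in wildtype, 104 to 110 in NASH CD11c-negative and 69.7 to 74.3 in NASH CD11c-positive arrays, the same order as Apoe. That order rested on Hp, a haptoglobin gene that myeloid cells also express, which rose in NASH CD11c-negative cells (1.73) and by itself stood at 18.2 to 19.9, 60.1 to 65.6 and 29.4 to 32.6. The other 11 genes, summed without Hp after the values had been seen, gave 56.9 to 61.4, 43.3 to 44.8 and 40 to 41.7, lower at each step, the same order as Apoc1. Between wildtype and NASH CD11c-negative cells 5 of the 12 passed as higher and 6 as lower, with Alb, the albumin gene, at -1.19, and 1 was higher and 10 lower between the NASH fractions. Of all genes 48.3% were higher and 28.5% lower in the former comparison, and 29.9% and 23.2% in the latter. The part of hepatocyte RNA in the Apoe and Apoc1 results was not tested.

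Mylip encodes the ubiquitin ligase IDOL, which marks lipoprotein receptors for breakdown. It read 3.31, 3.33, 3.35, 3.26 and 3.23 in wildtype, 3.71, 3.68, 3.64, 3.73 and 3.66 in NASH CD11c-negative and 3.81, 3.78, 3.75, 3.76 and 3.76 in NASH CD11c-positive cells. Wildtype arrays stood well apart, and the NASH fractions were separated by 0.02 at their nearest arrays. Mylip was 1.31-fold higher in NASH CD11c-negative than in wildtype cells (0.38 ± 0.028, limma adjusted p = 9.71e-09), falling to 0.13 with quantile normalization. The step between the NASH fractions was 0.09 ± 0.028 (adjusted p = 0.0116 by limma). That call was lost with the 75th percentile of probes above background (0.08), with the mean of the gene's probes (0.08) and within slide 2 (0.07). A second, dimmer Mylip probe gave 0.22, 0.07 and 0.28 in the 3 comparisons, with overlapping arrays in each, and the middle one did not pass (limma adjusted p = 0.544).

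Srebf1 encodes the transcription factor that drives fatty acid synthesis genes. It read -1.08, -1.02, -1.07, -0.96 and -1.03 in wildtype, -0.20, -0.39, -0.31, -0.12 and -0.20 in NASH CD11c-negative and 0.03, -0.17, -0.15, 0.05 and 0.04 in NASH CD11c-positive cells. Wildtype arrays were all below the others, and the NASH fractions overlapped. Srebf1 was 1.73-fold higher in NASH CD11c-negative than in wildtype cells (0.79 ± 0.057, limma adjusted p = 8.76e-09). The NASH CD11c-positive cells were 0.20 ± 0.057 above the NASH CD11c-negative cells (adjusted p = 0.00774 by limma), a call lost within slide 2 (0.14). Its ratio over Nr1h3 rose by 0.78 and by 1.17 over the wildtype mean in the NASH fractions.

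The stearoyl-CoA desaturases put the double bond into newly made saturated fatty acids, and they were the members with the largest step between the NASH fractions. Scd1 read 1.85, 1.79, 1.86, 1.93 and 1.95 in wildtype, 2.44, 2.46, 2.38, 2.52 and 2.56 in NASH CD11c-negative and 3.06, 3.06, 3.16, 3.12 and 3.09 in NASH CD11c-positive cells. Scd2 read 3.56, 3.55, 3.55, 3.66 and 3.67, then 4.52, 4.51, 4.51, 4.60 and 4.62, and then 5.19, 5.19, 5.27, 5.28 and 5.25. For both genes the 3 groups rose in that order without overlap. Scd1 was 1.51-fold higher in NASH CD11c-negative than in wildtype cells (0.60 ± 0.039, limma adjusted p = 3.31e-09; 0.36 with the 75th percentile of probes above background) and 1.54-fold higher in NASH CD11c-positive than in NASH CD11c-negative cells (0.63 ± 0.039, adjusted p = 8.09e-09). Scd2 was 1.94-fold higher in the former comparison (0.96 ± 0.036, adjusted p = 5.42e-12 by limma) and 1.61-fold higher in the latter (0.68 ± 0.036, adjusted p = 1.08e-09). From wildtype to NASH CD11c-positive cells Scd2 rose 3.12-fold (1.64 ± 0.036), the largest difference of any member. The ratio of Scd2 over Scd1 rose by 0.36 (0.33 to 0.41) and 0.42 (0.39 to 0.44) over the wildtype mean.

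Lpcat3 encodes the acyltransferase that puts polyunsaturated chains into membrane phospholipids. It read 1.91, 1.77, 1.77, 1.93 and 1.97 in wildtype, 2.61, 2.55, 2.51, 2.74 and 2.76 in NASH CD11c-negative and 2.72, 2.74, 2.89, 2.84 and 2.84 in NASH CD11c-positive cells. Wildtype arrays were all lower, and the NASH fractions overlapped. It was 1.69-fold higher in NASH CD11c-negative than in wildtype cells (0.76 ± 0.058, limma adjusted p = 1.88e-08). The step between the NASH fractions was 0.17 ± 0.058 (adjusted p = 0.0221 by limma) and missed the threshold without NASH CD11c-negative replicate 2 (0.15) or replicate 3 (0.14) and without NASH CD11c-positive replicate 3 (0.15). Both slides hold all 3 groups. With slide as a block no member's difference moved by more than 0.03, and the values within slide 1 and within slide 2 lay at most 0.10 apart for any member. In the 3 comparisons 9, 10 and 10 members passed within slide 1 and 9, 8 and 10 within slide 2. With the arrays of both slides 10280, 7115 and 10392 of all 13391 genes passed in these comparisons. Within slide 1 and slide 2 Lpcat3 gave 0.74 and 0.80 against wildtype in NASH CD11c-negative cells, and 0.17 and 0.11 between the NASH fractions.

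**Figure D2:**
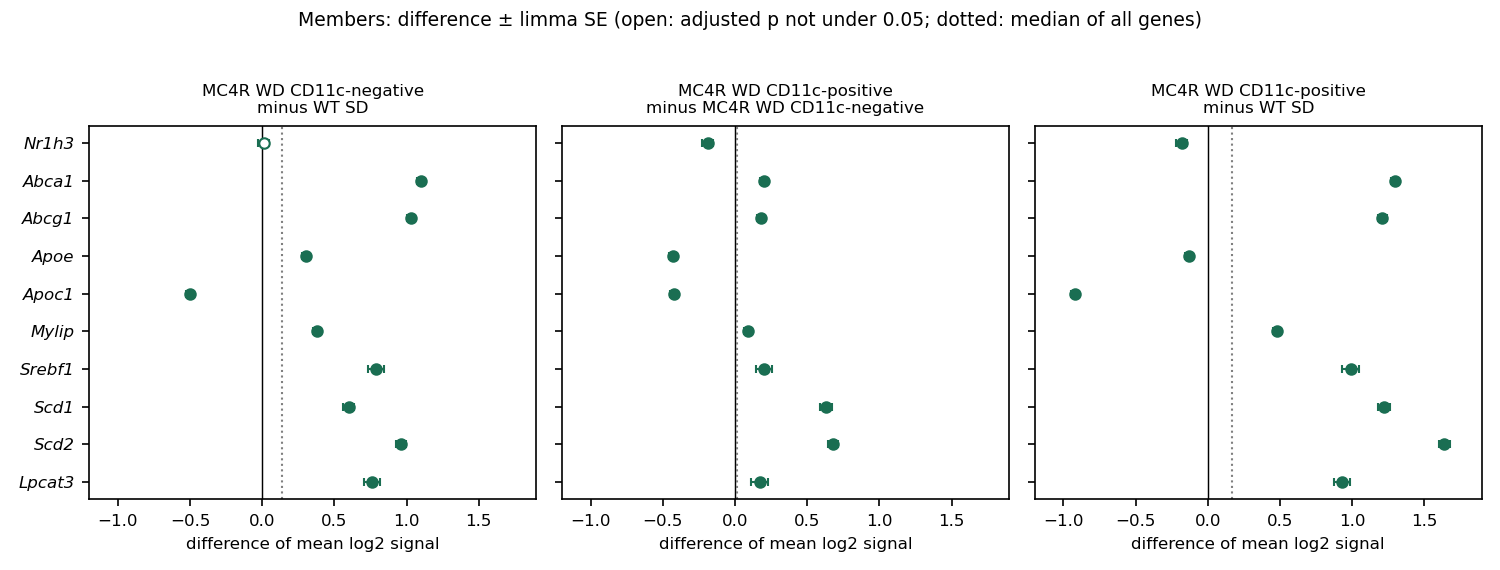
Difference of mean log2 signal (horizontal axis) of each member in the 3 comparisons, with bars for the limma standard error; open circles did not pass, and the dotted line is the median of all genes tested. Abca1 and Abcg1 stand farthest to the right between wildtype and NASH CD11c-negative cells (1.10 and 1.03) at this scaling, and Scd1 and Scd2 between the NASH fractions (0.63 and 0.68).

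The members differed in where their change lay. For Abca1, 84.3% of the log2 difference between wildtype and NASH CD11c-positive cells was already present in NASH CD11c-negative cells, and for Abcg1 the share was 85% (76.8% to 84.3% and 68.8% to 85% over 5 ways of scaling). Lpcat3 gave 81.5%, Mylip 80.5% and Srebf1 79.5%, with Mylip down to 55.8% under another scaling. The desaturases gave less than these at this scaling, 48.7% for Scd1 (36.9% to 48.7%) and 58.3% for Scd2 (47.9% to 58.3%). The share of the fall of Apoc1 depended on the scaling, from 54.2% as used here to 77.6%, and with quantile normalization it was above that of Abcg1. The ratio of Scd1 over Abca1 shows the same within arrays: relative to wildtype it was -0.51 in NASH CD11c-negative cells (-0.55 to -0.44) and -0.08 in NASH CD11c-positive cells (-0.12 to -0.04), with no overlap between the fractions.

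**Figure D3:**
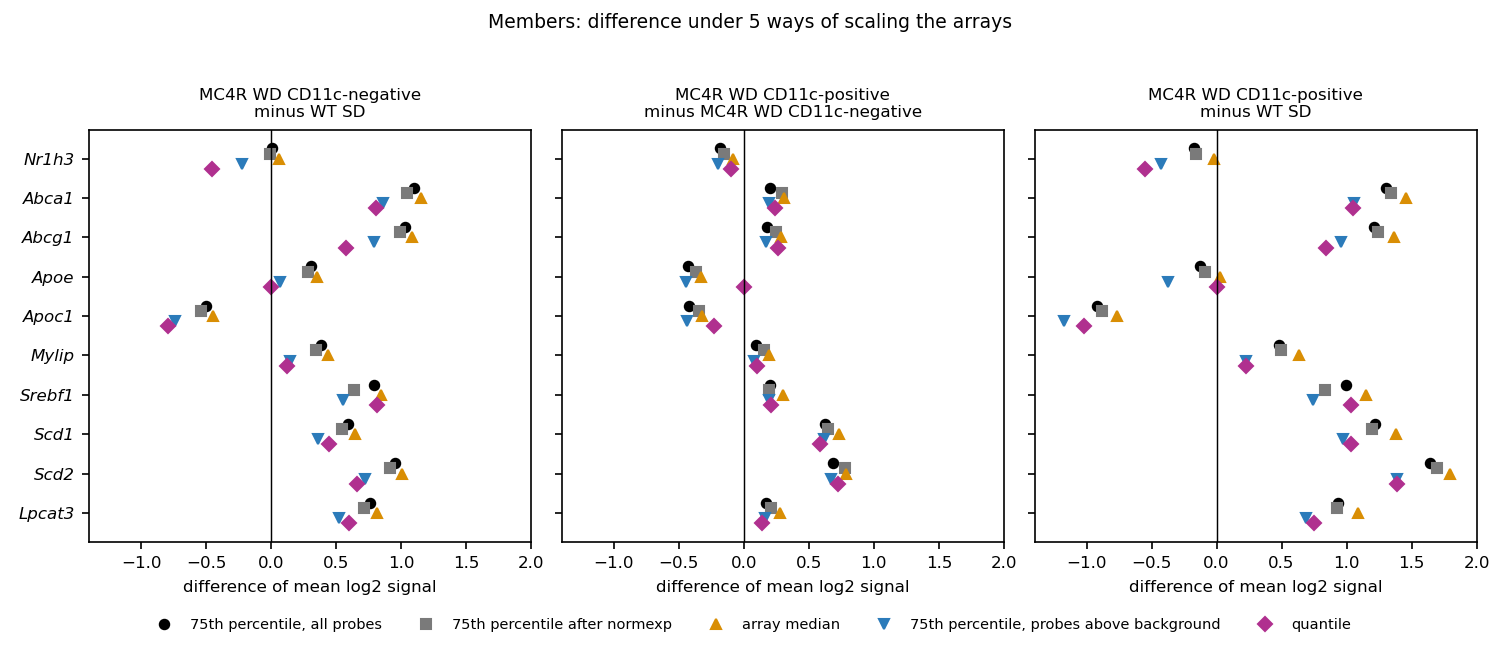
Difference of mean log2 signal (horizontal axis) of each member in the 3 comparisons under 5 ways of scaling the arrays, 1 symbol per way. Abca1, Abcg1, Mylip, Srebf1, Scd1, Scd2 and Lpcat3 stay to the right of 0 and Apoc1 to the left in every panel, while Nr1h3 runs from -0.46 to 0.06 between wildtype and NASH CD11c-negative cells and Apoe lies at 0 with quantile normalization.

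Genes that act with the receptor moved apart. Of 10 dimer partners and cofactors, 3 were higher, 5 lower and 2 did not pass in NASH CD11c-negative against wildtype cells (median -0.16, against 0.13 for all genes, of which 48.3% were higher and 28.5% lower). Quantile normalization gave 2 higher, 6 lower and a median of -0.37 there, and the 75th percentile of probes above background 2 higher, 7 lower and -0.40. Of these 10 genes 4 were higher, 2 lower and 4 did not pass between the NASH fractions, where 29.9% of all genes were higher and 23.2% lower. Rxra, the retinoid X receptor alpha gene and the usual partner in liver, fell from 0.16 to -0.48 and then to -0.82 (-0.64 ± 0.051 and -0.34 ± 0.051, limma adjusted p = 2.59e-08 and 5.43e-05), and its other probe had the same signs. Rxrg, another retinoid X receptor gene, was higher in NASH CD11c-negative cells (0.56), but its other probe had the opposite sign. Ncoa3, a coactivator gene, was lower by the same size (-0.56), and Ncoa1, also a coactivator gene, was higher in NASH CD11c-positive than in NASH CD11c-negative cells (0.39). Nr1h2, the gene of liver X receptor beta, was 0.25 higher in NASH CD11c-negative cells and gave -0.02 between the NASH fractions (limma adjusted p = 0.659), with the former at -0.07 under quantile normalization.

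Of 19 other known targets of the receptor, 14 were tested. In NASH CD11c-negative against wildtype cells 9 were higher, 3 lower and 2 did not pass, where 48.3% of all genes were higher and 28.5% lower. The median of the 14 was 0.32. Quantile normalization gave 6 higher, 3 lower and a median of 0.04, and the 75th percentile of probes above background 4 higher and 4 lower. Lpl, the lipoprotein lipase gene, rose most (1.44 ± 0.052), followed by Apoc4 of the Apoe cluster (0.99 ± 0.064). Between the NASH fractions 6 were higher, 4 lower and 4 did not pass, where 29.9% of all genes were higher and 23.2% lower. Elovl6, an elongase of saturated fatty acids, was higher in NASH CD11c-positive cells (0.67 ± 0.072, or 0.32 with normexp background correction). It was among the 3 lower genes between wildtype and NASH CD11c-negative cells (-0.21). Fasn, the fatty acid synthase gene, was 0.49 ± 0.12 higher in NASH CD11c-negative than in wildtype cells (adjusted p = 0.0021 by limma) and did not pass between the NASH fractions (0.17). Both were dim, with wildtype means of -2 for Elovl6 and -3.33 for Fasn. Fasn was well above background on 4 of 5 wildtype arrays.

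Cholesterol handling beyond the members showed more higher than lower genes at this scaling, as did all genes. Of 12 tested genes of 14 for export and intracellular transport, NASH CD11c-negative against wildtype cells showed 8 higher and 2 lower, and between the NASH fractions 6 were higher and 1 lower. The medians were 0.23 and 0.20. Of all genes 48.3% were higher and 28.5% lower in the former comparison, and 29.9% and 23.2% in the latter. With the 75th percentile of probes above background 5 of the 12 were higher and 4 lower in the former comparison, with a median of 0. Tspo, a mitochondrial cholesterol-binding protein gene, was 1.59 higher and Nceh1, a cholesteryl ester hydrolase gene, 0.91 higher in NASH CD11c-negative cells. Npc1, which releases cholesterol from lysosomes, was 0.60 higher in NASH CD11c-positive than in NASH CD11c-negative cells. The enzymes that make or clear ligands of the receptor went both ways, with 3 of 8 higher, 3 lower and 2 not passed between wildtype and NASH CD11c-negative cells, and 3 higher, 1 lower and 4 not passed between the NASH fractions. Ch25h, which makes an oxysterol, rose in NASH CD11c-negative cells (1.42 ± 0.095) and was lower in NASH CD11c-positive than in NASH CD11c-negative cells (-0.63), while Cyp7b1, which clears oxysterols, fell in the former comparison (-0.91 ± 0.18). Cyp7b1 was dim, at -2.24 in wildtype and -3.15 in NASH CD11c-negative cells, where 4 of 5 arrays were well above background. With normexp background correction its fall was -0.39.

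The genes of sterol synthesis are driven by the Srebf2 product, which sterol load is known to restrain. Of 15 tested genes of 16 on the SREBP2 list, NASH CD11c-negative against wildtype cells showed 10 higher and 3 lower (median 0.44), where 48.3% of all genes were higher and 28.5% lower. With the 75th percentile of probes above background the split was 8 higher and 5 lower, with a median of 0.21. Between the NASH fractions 12 were higher, none lower and 3 did not pass (median 0.35), where 29.9% of all genes were higher and 23.2% lower. Srebf2 itself rose by 0.57 and then by 0.33. Cyp51, a lanosterol demethylase gene, rose by 0.80 and Fdps, the farnesyl diphosphate synthase gene, by 0.77 in NASH CD11c-negative cells, and Hmgcs1, which feeds the mevalonate pathway, was 0.65 higher in NASH CD11c-positive than in NASH CD11c-negative cells. Among 6 tested relatives of the desaturases and of Lpcat3, 3 were higher and 1 lower between wildtype and NASH CD11c-negative cells, and 3 were higher and none lower between the NASH fractions. Lpcat1, an acyltransferase gene for saturated chains, rose by 1.09, Scd3 fell (-0.79) on a probe whose fellow probe had the opposite sign, and Mboat1 was 1.24 higher in NASH CD11c-positive than in NASH CD11c-negative cells. All 3 peroxisome proliferator-activated receptor genes passed as higher in NASH CD11c-negative cells at this scaling, with Pparg at 1.65 ± 0.039, Ppara at 0.45 ± 0.094 and Ppard at 0.15 ± 0.029. With the 75th percentile of probes above background only Pparg passed as higher. Ppara did not pass there (0.22), and Ppard passed as lower (-0.09). Quantile normalization left 2 higher and 1 not passed. Between the NASH fractions Ppard was 0.18 higher.

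**Figure D4:**
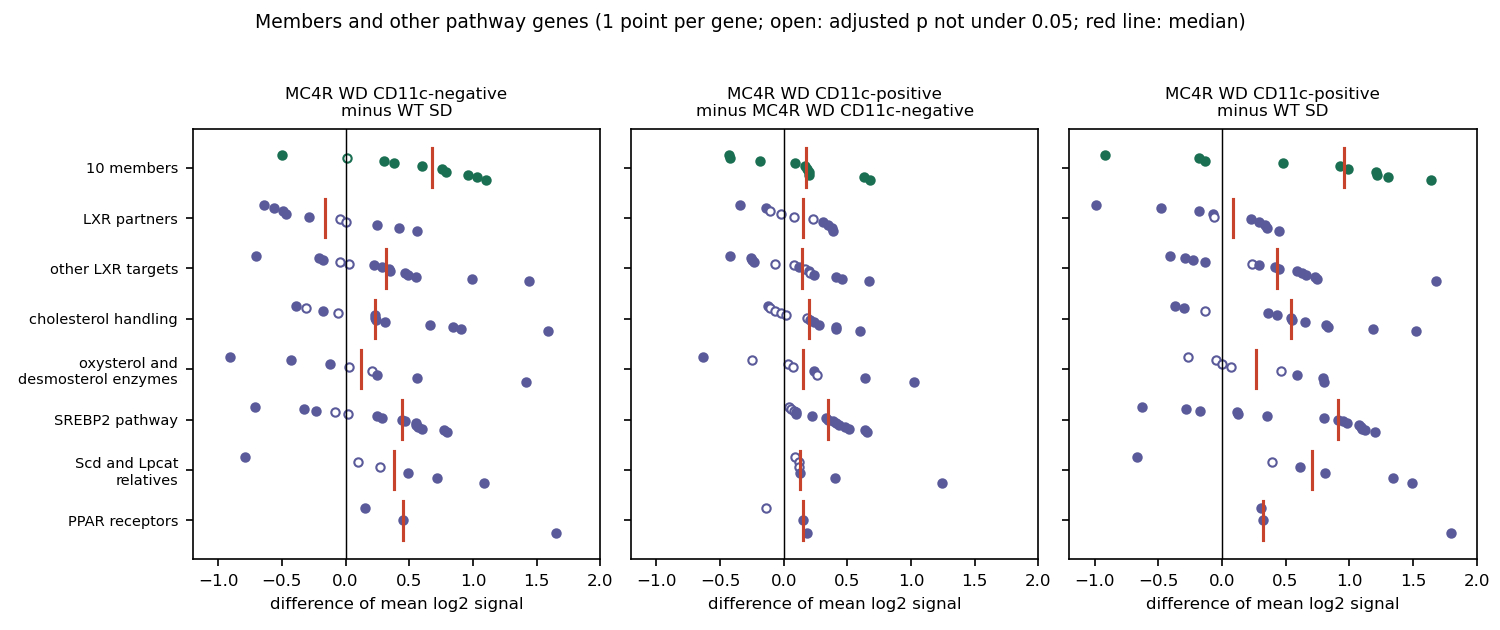
Difference of mean log2 signal (horizontal axis) in the 3 comparisons for the 10 members and 7 lists of related genes, 1 point per tested gene; open points did not pass and the red line is the median of a list. The members' median lies at 0.68, 0.18 and 0.96, and that of the dimer partners and cofactors at -0.16, 0.15 and 0.09.

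For each member the genes most alike over the 15 arrays were found by Pearson's r among all genes tested. These values describe patterns over 3 groups and shared arrays, and the highest of so many is large for any gene. Abca1 was most like Smim3, Mdfic and Syngr1 (r = 0.999, 0.999 and 0.998), and Abcg1 most like Ptgs2, Lag3 and Tent5c (0.998 each). Apoe was most like Mmp9, Slpi and Rprl2 (0.988 each), and Apoc1 most like Rasgrp2, Marco and Ccdc80 (0.998, 0.997 and 0.997). Of these, Mmp9 and Slpi are genes that neutrophils express strongly, and Marco is a scavenger receptor gene of Kupffer cells. Scd1 was most like Ctsk, Uck2 and Ddit4 (0.998 each), and Scd2 most like Cdk18, Rab7b and Tnfrsf21 (0.999 each). Srebf1 was most like Noa1, Ube2s and Fkbp4 (0.993, 0.992 and 0.992), Lpcat3 like Ddx24, Glb1 and Nop53 (0.998, 0.998 and 0.997), and Mylip like Treml2, Arl6ip6 and Nab1 (0.994 each). Nr1h3 had the loosest likeness, with Pdlim4, 0610040J01Rik and Tspan4 (0.955, 0.953 and 0.95).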

How the data were processed

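Gene expression was measured in 15 samples. Per the file headers, the deposited scanner files give per spot an intensity, the processed signal of Agilent Feature Extraction 10.7.3.1, background-subtracted and not scaled between arrays, with 62976 spots. The authors' deposited table holds log2 values, which matched the log2 processed signal minus the array's 75th percentile minus the wildtype median (median absolute difference 0.00146), and served as an alternative.

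Here 3671 control spots and spots marked as outliers (113 to 190 per array) were left out, spots of a probe were averaged, and the 75th percentile of all probes was subtracted from log2 signals. Probes were named by RefSeq accession (26582 of 55681, through the RefSeq table of GRCm38.p6, without coordinates), kept when well above background on 4 of 5 arrays of a group, and the brightest stood for its gene, which gave 13391 genes. Tests were 2-sided and used limma 3.58.1 under R 4.3.3 (lmFit, then eBayes) on all 15 arrays, and the fit was tested on simulated data. The number of arrays limits the precision.

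The members and lists were chosen with earlier results of these data known. Named were all members with every probe, per list the 2 genes with the largest difference in NASH CD11c-negative against wildtype cells (a tie to 2 decimals adds 1) and the 1 with the largest between the NASH fractions, with Nr1h2, Rxra, Srebf2 and Fasn, and 3 most alike genes per member. A few genes that this rule names are not reported here, although counts include them. Alb and Hp were added after their values were seen. Alternatives were normexp with an offset of 50, 3 other scalings, the deposited values, 2 filters, the mean of probes, slide, replicate number, only the groups compared, another variance prior, and each array left out.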

Additional observations from a re-analysis of the deposited data

How the results depend on the processing

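Under 30 alternatives the counts of members passing stayed at 9 to 10, 8 to 10 and 8 to 10 in NASH CD11c-negative against wildtype, between the NASH fractions, and in NASH CD11c-positive against wildtype cells, and with each array left out in turn at 9, 9 to 10 and 10. All genes passing under the 30 alternatives, those with an array left out among them, ran from 9259 to 10995, 5395 to 8373 and 9456 to 10916 in the same order of comparisons. Of 900 single differences of members 880 kept their direction and their side of the threshold. Sign changed in 8. Of these, 7 were Nr1h3 in NASH CD11c-negative against wildtype cells, which stood near 0 (0.01) and did not pass in the main setting: it was -0.455 with quantile normalization, -0.227 with the 75th percentile of probes above background, both of which passed, and, not passing, -0.005 with normexp, -0.015 within slide 1, and -0.011 to 0.03 with each array left out in turn, with 3 of those below 0. The other was Apoe in NASH CD11c-positive against wildtype cells with the array median (0.027). The cause was not tested. Another 12 lost their call and stand with the results above. With the replicate block the members passing were 9, 10 and 10 and all genes passing 10736, 7948 and 10776, against 10280, 7115 and 10392 without it. Same-numbered arrays correlated at 0.0576 to 0.373, -0.198 to 0.287 and -0.171 to 0.274 in their deviations from group means, with 2, 3 and 3 of 5 best matched to their own number. With slide means also removed, 1 of 5 was best matched to its own number in each comparison. The numbers are therefore not taken to pair the samples. The brightest probe stands for a gene, and differences of dim members such as Srebf1 rest on less signal over background.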
